A study of Mus musculus with 60 samples.

Results

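The serpins are the genes whose symbols read Serpin, a clade letter from a to i and a number. By that rule 59 of the 19456 symbols listed for cells or livers were serpins. The table of cells held all 59 among 19355 symbols, that of livers 51 among 17473, and the table of day 7 cultures, 3 among 480, all of which the table of cells held too. The rule reads the symbol alone. The clades held 24 (A), 24 (B), 1 (C), 1 (D), 3 (E), 2 (F), 1 (G), 1 (H) and 2 (I) members. The study asked whether IL6 lets mouse hepatocytes expand in culture, what becomes of the cells, and how they compare with liver regrowing after surgery. Polyadenylated RNA of 33 cell samples in 11 groups, 18 liver samples in 6 groups and 9 day 7 samples in 3 groups was sequenced, 3 samples a group, from C57BL/6 mice labelled wild type and aged 8 to 10 weeks.

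The cell groups were freshly isolated hepatocytes, first cultures (P0) at day 3 (D3) and day 14 (D14), 4 passaged lines of IL6-iHPCs, and the IL6-iMHs made from each of those lines. Hepatocytes given 30 ng/ml IL6, with EGF, HGF and dexamethasone, turn into dividing cells with progenitor traits, and these are the IL6-iHPCs. IL6-iMHs are the hepatocyte-like cells that the IL6-iHPCs become over 7 days in a maturation medium without IL6, EGF and HGF that holds dexamethasone and oncostatin M. The lines were mouse-1 at passage 10 (P10) and again at passage 35 (P35), mouse-2 at P10, and clone-1 at passage 20 (P20), a line grown from a single hepatocyte, so that 2 of the 4 lines are cells of the same mouse at different passages. Clone-1 is labelled wild type, while the study's text describes single-cell lines from the offspring of Albumin-Cre and R26RtdTomato mice, whose hepatocytes carry a red reporter, and whether clone-1 is one of them was not given. Day 7 cultures were grown with IL6 (IL6-iHPCs-D7) or in the same medium without it (HCM-Hepa-D7). The livers were normal or taken 6 h, 24 h, 3, 7 or 14 days after removal of 2/3 of the liver (PHX). The labels of the livers tell the samples apart only by number, and whether each is a separate animal was not given.

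Serpins are a family of folded proteins of which most trap a protease: the protease cuts an exposed loop, the serpin snaps into a more stable shape, and both stay joined and inactive. Hepatocytes are the main source of the serpins of blood plasma, which hold in check neutrophil elastase, thrombin, plasmin and the first steps of complement, and some of which rise in the acute phase response that IL6 drives. Other members have given up protease inhibition and carry hormones or help collagen fold, and the members of clade B stay inside cells. In the mouse, single human genes of clade A correspond to clusters of near copies.

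Values were FPKM, the authors' measure of RNA per transcript length and per library, so levels can be set side by side between genes. A gene was called higher or lower when limma on log2(FPKM + 1), fitted over all groups of a table, gave an adjusted p under 0.05 (Benjamini-Hochberg, over all genes tested) and the fitted difference was 2-fold or more, and fold changes are on that scale, which understates those of low genes. The cell samples held 49.3 M to 88.8 M (M, mega) reads on genes and the liver samples 46.8 M to 73.9 M, as recovered from the values. Samples of a cell group are technical repeats, so their p-values cover technical spread and not the spread between mice. Of 8 hepatocyte markers, all were present in hepatocytes and normal liver, and their summed level was 79950 to 84310 FPKM in hepatocytes, 8472 to 9321 at D3, and, in IL6-iMHs, 77020 to 83200 in mouse-1 P10, 85440 to 86270 in mouse-2, 73110 to 76880 in clone-1 and 68790 to 79170 in mouse-1 P35, both of the latter below every hepatocyte sample. In each IL6-iMH group 3 or 4 of the 8 were lower in every sample than in every hepatocyte sample, and 2 to 4 were higher in every sample. In bulk RNA, fewer cells of a type and less RNA per cell cannot be told apart.

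Some libraries went against their labels or stood apart. Clone-1 IL6-iHPCs held 6575 to 9095 reads on 4 Y-linked genes while the IL6-iMHs labelled as made from them held 0. In clone-1, maturation and a difference between cells therefore cannot be told apart. The passaged lines of mouse-1 and mouse-2 and their IL6-iMHs held at most 2 such reads. Comparisons over lines are also given without clone-1. Hepatocytes held 994 to 1550 such reads, D3 13066 to 18444 and D14 9185 to 10803, so the passaged lines of mouse-1 and mouse-2 differed from these groups in Y-linked RNA too, and sex and culture cannot be told apart there. All 4 genes were also higher in every D3 and D14 sample than in every hepatocyte sample. Donors and culture cannot be told apart in those comparisons either. In the liver, replicate 2 of the PHX group at day 3 stood apart from the other 2, and results there are also given without it.

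In hepatocytes and liver, most of the family's RNA came from 2 clusters on chromosome 12 of the mouse genome (build GRCm38), the alpha-1 antitrypsin genes Serpina1a to Serpina1e and the antichymotrypsin-like genes of the Serpina3 group. The coding sequences of Serpina1a to Serpina1e, each 1239 bases in 4 coding exons on the minus strand (GENCODE annotation), were 96.29% to 98.47% identical over 10 pairs, and 86 of 1239 positions (6.94%) differed among the 5. The 60 bases of coding positions 1102 to 1161, in exon 4 of 4, held 18 of these positions, shown in capitals because they are what tells the RNAs of the 5 genes apart. They lie at chr12:103853756-103853815 in Serpina1a, chr12:103728323-103728382 in Serpina1b, chr12:103895093-103895152 in Serpina1c, chr12:103763761-103763820 in Serpina1d and chr12:103947099-103947158 in Serpina1e, all on the minus strand, and read 5′ to 3′ as follows.
Serpina1a: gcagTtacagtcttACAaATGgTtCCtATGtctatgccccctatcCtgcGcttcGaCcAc
Serpina1b: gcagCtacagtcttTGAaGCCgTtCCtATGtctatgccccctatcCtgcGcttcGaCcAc
Serpina1c: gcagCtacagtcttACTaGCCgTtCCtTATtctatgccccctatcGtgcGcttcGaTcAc
Serpina1d: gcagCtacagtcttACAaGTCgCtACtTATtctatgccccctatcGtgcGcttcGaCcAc
Serpina1e: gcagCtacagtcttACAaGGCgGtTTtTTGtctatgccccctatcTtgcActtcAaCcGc
Over their whole transcripts, the share of stretches of 150 bases that another gene repeats letter for letter was 50.54% in Serpina1a, 50.5% in Serpina1c, 23.29% in Serpina1d, 21.2% in Serpina1b and 9.42% in Serpina1e. Levels of the 5 genes are therefore uncertain to the extent that the authors' counting split such reads, least so for Serpina1e.

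Serpina3k, Serpina3m and Serpina3n, neighbours on the plus strand of chromosome 12, were easier to separate. At most 0.33% of such stretches were shared between any of the 3, and 226 of 1239 aligned coding positions (18.24%) differed. The 60 bases with the most differences, 23, lie in coding exon 1 at chr12:104340580-104340639, chr12:104389142-104389201 and chr12:104408737-104408796, with capitals at the positions that differ.
Serpina3k: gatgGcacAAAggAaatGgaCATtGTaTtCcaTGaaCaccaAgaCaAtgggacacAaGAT
Serpina3m: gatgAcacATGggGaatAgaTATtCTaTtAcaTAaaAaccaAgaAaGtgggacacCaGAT
Serpina3n: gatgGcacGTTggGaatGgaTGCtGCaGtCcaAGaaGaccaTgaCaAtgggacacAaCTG
The other members that share stretches with another gene were Serpina11 (40.14%, with the gene Gm28577), Serpinb9f (38.57%), Serpinb9g (30.88%), Serpinb9c (17.6%), Serpinb3a (3.4%), Serpinb9e (2.03%) and Serpinb9d (1.18%), and of these Serpina11 alone reached 10 FPKM in any group.

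Upstream sequence (RefSeq, build GRCm38.p6) was on hand for 51 of 59 members, and not for Serpina10, Serpina3k, Serpina3m, Serpina6, Serpina9, Serpinb1a and Serping1 among others. The short motifs searched, on both strands of the 250 bases before the start, were TTCNNNGAA for STAT factors, TTGCNNAA for C/EBP factors and GTTAAT for HNF1. They stood before 7, 12 and 10 of the 51 members, against 7.179%, 9.554% and 6.52% of 27025 promoters. A match is a match of letters and not a bound site. The HNF1 letters were before all of Serpina1a to Serpina1e, which share an unbroken stretch of 55 bases there, and before Serpina7. The STAT letters were before Serpina11, Serpina1f, Serpina3f, Serpina3g, Serpina3i, Serpinb6a and Serpinb9c. The bases nearest the start are shown for Serpina1e, the most abundant of the Serpina1 group in hepatocytes, for Serpina7 and for Serpina3g, at chr12:103956899-103956997 (minus strand, 99 bases), chrX:139085237-139085336 (minus strand, 100 bases) and chr12:104236047-104236146 (plus strand, 100 bases). Capitals mark GTTAAT in the first, GTTAAT and a C/EBP match in the second, and a STAT match in the last.
Serpina1e: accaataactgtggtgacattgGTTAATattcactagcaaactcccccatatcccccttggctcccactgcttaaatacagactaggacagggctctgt
Serpina7: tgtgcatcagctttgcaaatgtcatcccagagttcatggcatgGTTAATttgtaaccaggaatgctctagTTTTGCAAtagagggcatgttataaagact
Serpina3g: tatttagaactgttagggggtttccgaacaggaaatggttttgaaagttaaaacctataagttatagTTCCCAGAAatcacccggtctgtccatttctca
The stretch shared by all 5 Serpina1 genes, with GTTAAT in capitals, is below.
Serpina1a to Serpina1e: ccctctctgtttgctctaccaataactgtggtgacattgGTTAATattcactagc

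As a share of all FPKM in a sample, the serpins made up 7.68 to 8.46% in hepatocytes, 0.396 to 0.406% at D3 and 1.22 to 1.57% at D14. Passaged IL6-iHPCs divided into lines with much serpin RNA, 2.73 to 3.2% in mouse-1 and 2.56 to 2.6% in mouse-2 at P10, and lines with little, 0.335 to 0.346% in clone-1 and 0.277 to 0.287% in mouse-1 at P35. The IL6-iMHs of all 4 lines came closer together, between 2.59% and 3.66%, below every hepatocyte sample. In the liver the share was 5.42 to 5.97% before surgery, 5.43 to 6.16% at 6 h and 5.36 to 5.58% at 24 h, then 3.14 to 4.57% at day 3 and 3.59 to 3.86% at day 7, and 5.34 to 6.36% at day 14. At days 3 and 7 no sample overlapped normal liver (two-sided exact permutation test, p = 0.1 for each, the smallest that 3 against 3 allows). Serpina1a to Serpina1e with Serpina3k, Serpina3m and Serpina3n gave 91.3 to 92.6% of the serpin FPKM in hepatocytes and 89.2 to 91.5% in normal liver, but 14.4 to 16% at D3. In IL6-iHPCs they gave 39.9 to 42.9% in clone-1 and 45 to 47% in mouse-1 at P35.

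**Figure D1:**
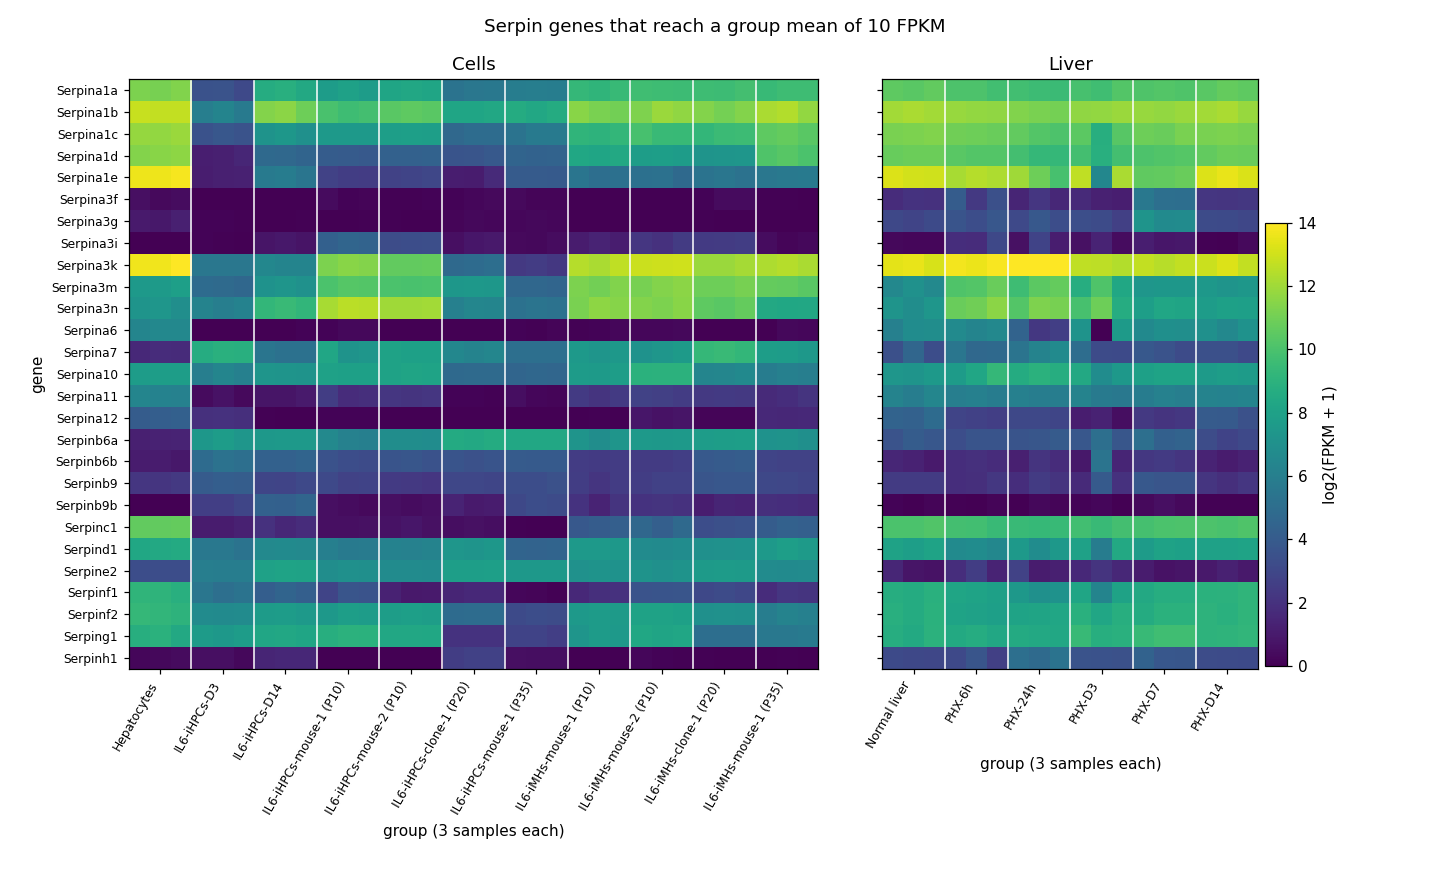
Colour gives log2(FPKM + 1) of the serpins described (rows, by clade) in the 33 cell samples and the 18 liver samples (columns, 3 a group). Rows such as Serpinc1 and Serpina6 are bright in hepatocytes and normal liver and darker in the cultures, while Serpina7, Serpinb6a and Serpine2 are brighter in every culture than in hepatocytes.

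Of the serpins listed, 29 in cells and 31 in livers passed the filter of at least 1 FPKM in 3 samples and were tested, 32 in either. The 30 and 20 not tested had group means of at most 1.11 and 0.352 FPKM. At D3, 7 of the 29 were higher and 19 lower than in hepatocytes, where 53.9% of all 12328 genes tested were higher and 12.1% lower. At D14 the counts were 8 and 15, beside 50% and 12.9%, and in the mean of the 4 passaged lines 8 and 17, beside 48.1% and 11.3%. The median gene was itself shifted by 1.14, 1.00 and 0.93 on the log2 scale against hepatocytes in these comparisons, while the median serpin was at -2.02, -1.48 and -1.51. With quantile normalization, which removes that shift, higher calls went from 81.63% to 53.63% of all calls at D3, from 79.44% to 52.81% at D14 and from 80.99% to 54.5% in the passaged lines, and the serpin counts were 6 and 18, 7 and 14, and 8 and 16. Without clone-1, 8 serpins were higher and 16 lower in the passaged lines, beside 46.5% and 12%.

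Clade A gave most of the falls. Of its 15 members tested, 13 fell and 1 rose at D3, and of the 6 of clade B 4 rose and 1 fell. The largest adjusted p of any serpin called was 4.20e-09 at D3, 3.05e-09 at D14 and 5.30e-13 in the passaged lines.

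The alpha-1 antitrypsin genes are named after the plasma inhibitor of neutrophil elastase, and whether each of the 5 products inhibits elastase was not tested. As a group they were the most abundant in hepatocytes, with 28130 to 30920 FPKM. Serpina1e led with 12800, 12710 and 14590 FPKM, followed by Serpina1b with 7329, 6835 and 6741, Serpina1c with 3514, 3398 and 3852, Serpina1d with 2752, 2919 and 3099 and Serpina1a with 2403, 2276 and 2639. The genes stood in this order without overlap between their samples. At D3 all 5 had fallen, to 1.2, 1.34 and 1.42 FPKM for Serpina1e (log2 fold change -12.49, SE 0.13, adjusted p = 3.26e-34) and 63, 77.4 and 50.6 for Serpina1b (log2 fold change -6.77, SE 0.17, adjusted p = 4.78e-25). The log2 fold changes of Serpina1a, Serpina1c and Serpina1d were -7.84 (SE 0.11), -8.17 (SE 0.12) and -10.2 (SE 0.09). No D3 sample overlapped a hepatocyte sample in any of the 5 genes.

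At D14 Serpina1b had returned to 2721, 2993 and 1908 FPKM (log2 fold change -1.48, SE 0.17, adjusted p = 3.05e-09 against hepatocytes) while Serpina1e stood at 54.6, 57.2 and 42.3 (log2 fold change -8.0, SE 0.13, adjusted p = 1.18e-29). With quantile normalization the log2 fold change of Serpina1b at D14 was -0.29 and it was no longer called. The make-up of the group thus differed between hepatocytes and culture. Serpina1e gave 44.4 to 47.2% of the group's FPKM in hepatocytes, 1.54 to 1.73% at D14 and 0.279% to 3.18% in the passaged lines. Serpina1b gave 21.8 to 25.4% in hepatocytes and 77.8 to 81.1% at D14. Shares of this kind are less open to the shift of the median gene, since they compare genes within a library.

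In IL6-iMHs all 5 genes were higher than in the IL6-iHPCs, in each of the 4 lines. Over the 12 IL6-iMH samples Serpina1b held 2086 to 5389 (median 2818) FPKM against 297 to 1496 (median 594) in the 12 IL6-iHPC samples (log2 fold change 2.3, SE 0.09, adjusted p = 8.15e-21). Serpina1d went from 11.4 to 21.5 (median 17.5) to 149.8 to 1305 (median 268) (log2 fold change 4.26, SE 0.04, adjusted p = 1.80e-34), with no overlap. Serpina1a and Serpina1c rose by log2 2.67 (SE 0.05) and 3.22 (SE 0.06).

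Serpina1e remained the exception in level. It went from 1.08 to 15.4 (median 5.7) FPKM to 26.4 to 52.3 (median 38.7) (log2 fold change 2.63, SE 0.07, adjusted p = 4.68e-25), yet stayed far below hepatocytes (log2 fold change -8.39, SE 0.10, adjusted p = 1.04e-32). Against hepatocytes the other 4 were lower too, with log2 fold changes of -1.69 (SE 0.09) for Serpina1a, -1.2 (SE 0.14) for Serpina1b, -2.11 (SE 0.10) for Serpina1c and -3.11 (SE 0.07) for Serpina1d. The share of Serpina1e in the group was 0.528% to 1.12% in IL6-iMHs, and that of Serpina1b 50.7% to 67.6%. No IL6-iMH sample overlapped a hepatocyte sample in either share.

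**Figure D2:**
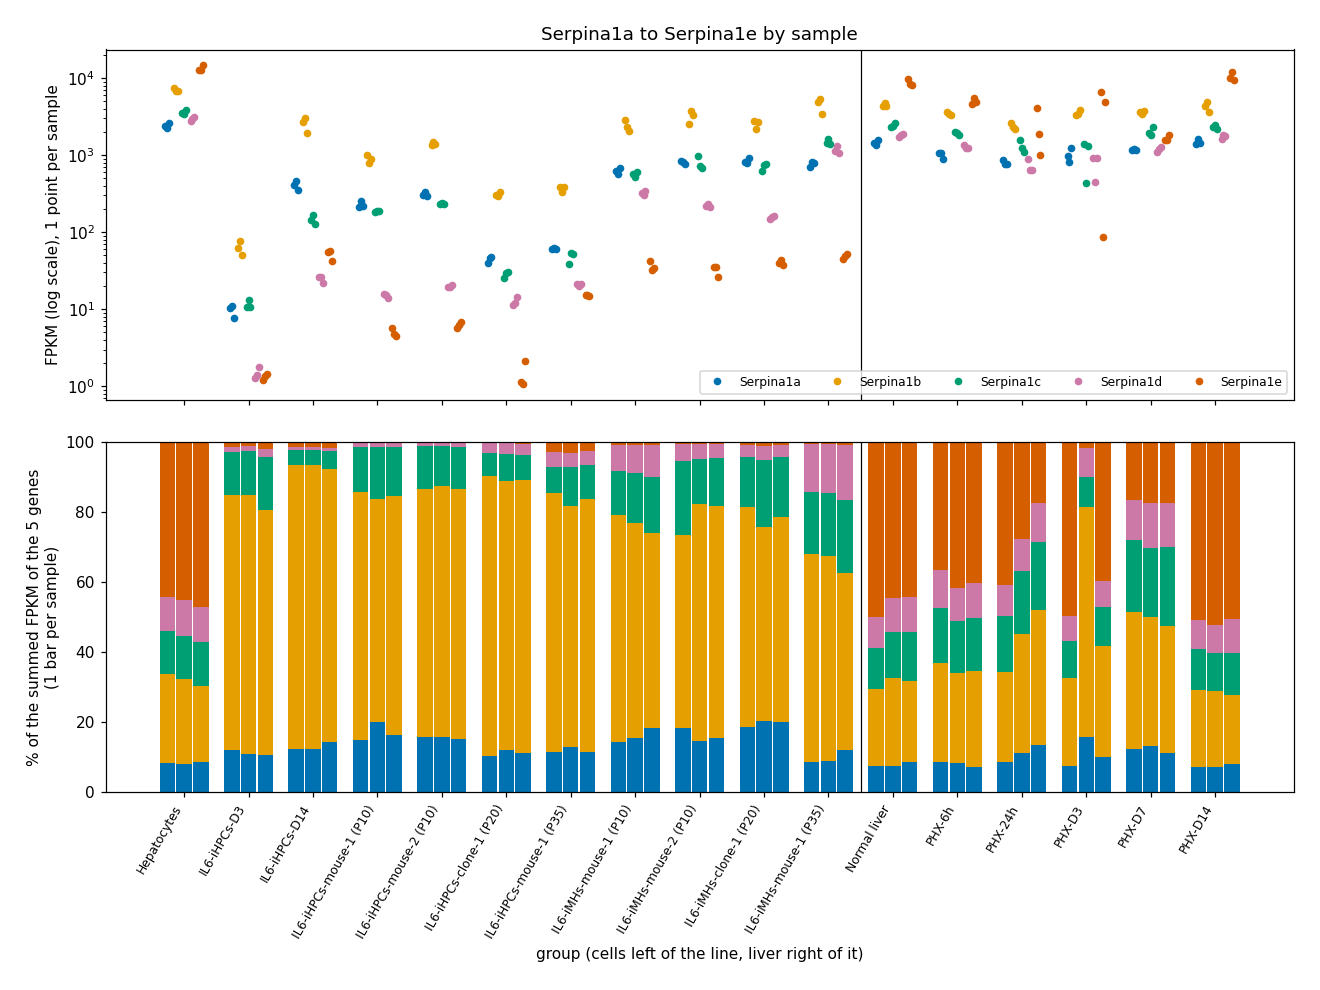
The upper panel shows FPKM (log axis) of Serpina1a to Serpina1e in each sample by group, and the lower panel shows, for each sample, the percent of the summed FPKM of the 5 genes that each gave. Serpina1e gave 44.4% to 47.2% in hepatocytes and 0.528% to 1.12% in IL6-iMHs, and 16.6% to 17.5% in the liver 7 days after PHX.

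The Serpina3 group divided in the same cells. Serpina3k, the most abundant contrapsin-type inhibitor of mouse liver, held 13420, 13400 and 16170 FPKM in hepatocytes and 46.1, 46.6 and 45.8 at D3, a 310.3-fold lower mean (log2 fold change -8.24, SE 0.10, adjusted p = 5.57e-33). At D14 it held 89.6, 78.2 and 77.3 (log2 fold change -7.43, SE 0.10, adjusted p = 5.31e-32). Among passaged lines it ranged widely, with 2433, 2957 and 2668 FPKM in mouse-1 and 1573, 1592 and 1641 in mouse-2 at P10, 27, 28.7 and 31.8 in clone-1 and 4.1, 4.62 and 3.88 in mouse-1 at P35. Every P10 sample was above every sample of the other 2 lines, and below every hepatocyte sample.

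Serpina3n, an acute phase inhibitor, lay above every hepatocyte sample at D14 and in the P10 lines and below every one at D3 and in the P35 and clone-1 lines. It held 149.5, 162 and 121 FPKM in hepatocytes, 75.1, 62.7 and 72.4 at D3 (log2 fold change -1.02, SE 0.12, adjusted p = 4.20e-09) and 608, 714 and 600.1 at D14 (log2 fold change 2.15, SE 0.12, adjusted p = 1.72e-16). The fall at D3 was near the 2-fold limit and was not called with quantile normalization (log2 -0.57) or without hepatocyte replicate 1, hepatocyte replicate 2 or D3 replicate 2. At P10 Serpina3n was the most abundant serpin, with 4677, 6091 and 5699 FPKM in mouse-1 and 4143, 4117 and 4239 in mouse-2. Clone-1 at 67.2, 83.7 and 80.6 and mouse-1 P35 at 36.5, 41.1 and 38.4 were the low lines, so the rise called over the mean of the 4 lines (log2 fold change 1.84, SE 0.10, adjusted p = 2.17e-17) rested on P10.

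Serpina3m, a close relative of both, went from 192, 198 and 237 FPKM to 28.8, 28.1 and 24.3 at D3 (log2 fold change -2.9, SE 0.10, adjusted p = 1.26e-21) and 140.2, 157 and 136 at D14. It held 1067, 1267 and 1222 in mouse-1 at P10 and 1044, 1027 and 1047 in mouse-2, above every hepatocyte sample, but 167, 177 and 171 in clone-1 and 24.5, 24.3 and 22.8 in mouse-1 P35, below every one, and was not called over the 4 lines (log2 fold change 0.37, SE 0.08, adjusted p = 1.02e-04). Serpina3k gave 97.4 to 97.8% of the FPKM of the 3 genes in hepatocytes, 8.23 to 10.7% at D14 and 48.1% to 74.3% in IL6-iMHs.

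Serpina3i, a further copy, was at 0, 0.0129 and 0 FPKM in hepatocytes, that is 2 reads in 1 sample, and at 18.8, 22.4 and 20.8 in mouse-1 and 8.5, 8.89 and 9.22 in mouse-2 at P10. The other cultures held less, from 0.0333 to 0.114 at D3 and 0.638 to 0.841 at D14 to 0.237 to 0.40 in mouse-1 P35. It was called higher over the passaged lines (log2 fold change 2.22, SE 0.08, adjusted p = 1.47e-21), a value that depends on the pseudocount of 1 FPKM since hepatocytes held so few reads.

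The hormone carriers of clade A went in opposite directions. Serpina6, which carries corticosteroids in blood, had 81.4, 91.5 and 92.1 FPKM in hepatocytes and at most 0.242 in any of the 30 cultured samples, IL6-iMHs included. It was lower at D3 (log2 fold change -6.45, SE 0.06, adjusted p = 9.92e-36), and the log2 fold change of IL6-iMHs against hepatocytes was -6.33 (SE 0.05). Serpina7, which carries thyroid hormone and lies on the X chromosome (chrX:139079257-139085236, GRCm38), had 2.02, 2.4 and 2.33 FPKM in hepatocytes and 409.6, 476 and 449 at D3 (log2 fold change 7.1, SE 0.17, adjusted p = 6.84e-26), where it was the most abundant serpin. At D14 it was at 43.3, 36.9 and 36 (log2 fold change 3.61, SE 0.17, adjusted p = 1.27e-18). Passaged IL6-iHPCs held 33.2 to 316 (median 116) (log2 fold change 5.08, SE 0.13, adjusted p = 5.47e-25) and IL6-iMHs 138 to 731 (median 193) (log2 fold change 6.26, SE 0.13, adjusted p = 5.78e-27). No cultured sample overlapped hepatocytes.

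The remaining described members of clade A were Serpina10, which with protein Z inhibits activated factor X, Serpina11, whose role is not well known, and Serpina12, or vaspin, an adipokine. Serpina10 held 216, 218 and 218 FPKM in hepatocytes, 63.5, 82.4 and 66.3 at D3 (log2 fold change -1.61, SE 0.08, adjusted p = 2.66e-18) and 158, 153 and 143 at D14 (log2 fold change -0.52, SE 0.08, adjusted p = 2.97e-07). P10 lines were above hepatocytes, with 247 to 292 FPKM in 6 samples, and clone-1 and mouse-1 P35 below, with 22.9 to 27.9 in 6 samples. Over the 4 lines it was called lower (log2 fold change -1.38, SE 0.06, adjusted p = 3.40e-19), except with quantile normalization (log2 -0.92) and without clone-1 (log2 -0.86). Serpina11 fell from 81.5, 72.9 and 69.5 to 0.343, 0.588 and 0.276 at D3 (log2 fold change -5.76, SE 0.13, adjusted p = 5.78e-26) and was at 2.13 to 5.8 (median 4.1) in IL6-iMHs (log2 fold change -3.96, SE 0.11, adjusted p = 2.72e-24 against hepatocytes). Serpina12 fell from 16.1, 17.3 and 18.4 to 2.82, 3.06 and 2.68 at D3 (log2 fold change -2.25, SE 0.04, adjusted p = 1.49e-27) and to 0.0406, 0.0152 and 0.0195 at D14 (log2 fold change -4.16, SE 0.04, adjusted p = 5.13e-34).

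Of clade B, the intracellular serpins, 4 of the 6 members tested were higher at D3, 3 at D14 and 3 in the passaged lines, and 1 was lower each time, where 53.9%, 50% and 48.1% of all genes were higher. Serpinb6a, an inhibitor of cathepsin G, held 1.34, 1.51 and 1.62 FPKM in hepatocytes and 168, 217 and 163 at D3 (log2 fold change 6.2, SE 0.11, adjusted p = 9.97e-29), 178, 179.9 and 180.1 at D14 and 65.9 to 394 (median 223) in passaged IL6-iHPCs (log2 fold change 6.2, SE 0.09, adjusted p = 1.55e-31). IL6-iMHs kept 117 to 229.9 (median 166) (log2 fold change 6.08, SE 0.09, adjusted p = 4.26e-31 against hepatocytes). The lowest cultured sample was above the highest hepatocyte sample by a wide margin.

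Serpinb6b, a relative of Serpinb6a, went from 1.13, 1.1 and 0.869 to 28.9, 38.1 and 33.1 FPKM at D3 (log2 fold change 4.07, SE 0.09, adjusted p = 1.28e-26) and was at 4.11 to 16.3 (median 5.32) in IL6-iMHs (log2 fold change 1.91, SE 0.07, adjusted p = 9.35e-21). Serpinb9, an inhibitor of granzyme B, went from 3.66, 3.4 and 4.09 to 15, 17.4 and 16.4 at D3 (log2 fold change 1.87, SE 0.09, adjusted p = 3.55e-18), a call lost with quantile normalization (log2 0.49), and was not called at D14 (log2 fold change 0.71, SE 0.09, adjusted p = 1.83e-08). Its relative Serpinb9b was at 0.0153, 0 and 0 FPKM in hepatocytes, 2 reads in 1 sample, at 5.03, 5.17 and 6.69 at D3 (log2 fold change 2.71, SE 0.13, adjusted p = 4.81e-18) and at 19.1, 18.4 and 22.5 at D14 (log2 fold change 4.38, SE 0.13, adjusted p = 3.66e-23). Markers of macrophages, which also express clade B members, summed to 11.6 to 13.7 FPKM over 8 genes in hepatocytes, 20.9 to 26.5 at D3 and 3.61 to 4.38 at D14. Of the 8, 7 were lower in every D3 sample than in every hepatocyte sample and Clec4f, Marco and Timd4 were at 0.

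Antithrombin, the heparin-dependent inhibitor of thrombin and factor X encoded by Serpinc1 (chr1:160978585-161005863), was the inhibitor of clotting that fell furthest. It held 1605, 1576 and 1637 FPKM in hepatocytes, 1.13, 1.06 and 1.4 at D3 (log2 fold change -9.52, SE 0.11, adjusted p = 8.12e-33) and 2.97, 1.95 and 2.39 at D14 (log2 fold change -8.88, SE 0.11, adjusted p = 3.59e-32). Passaged IL6-iHPCs held 0.00865 to 0.776 (median 0.477) (log2 fold change -10.18, SE 0.09, adjusted p = 1.98e-36). IL6-iMHs held 8.91 to 26.6 (median 16.8), higher than IL6-iHPCs in 4 of 4 lines (log2 fold change 3.59, SE 0.06, adjusted p = 1.16e-29) and far below hepatocytes (log2 fold change -6.58, SE 0.09, adjusted p = 1.52e-31).

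Heparin cofactor II, the other serpin that inhibits thrombin, is encoded by Serpind1. It held 321, 354 and 372 FPKM in hepatocytes, 48, 47.2 and 39.8 at D3 (log2 fold change -2.93, SE 0.08, adjusted p = 9.80e-25) and 95.9, 104 and 97 at D14 (log2 fold change -1.81, SE 0.08, adjusted p = 1.59e-19). IL6-iMHs held 104 to 233 (median 157), called lower than hepatocytes (log2 fold change -1.19, SE 0.06, adjusted p = 3.07e-17) except with quantile normalization (log2 -0.85).

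Of clade E, Serpine2 was higher in every cultured sample than in every hepatocyte sample. Serpine2 (protease nexin-1), which inhibits thrombin and urokinase, held 9.06, 8.98 and 8.73 FPKM in hepatocytes, 61.9, 61.2 and 61.3 at D3 (log2 fold change 2.65, SE 0.05, adjusted p = 3.47e-28) and 262, 275 and 267 at D14 (log2 fold change 4.76, SE 0.05, adjusted p = 2.83e-34). It was at 103 to 202 (median 141) in IL6-iMHs, not called against IL6-iHPCs (log2 fold change -0.09, SE 0.03, adjusted p = 0.00114).

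The members of clade F were called lower than in hepatocytes at D3, at D14, in the passaged lines and in IL6-iMHs. The D14 call of Serpinf2 was lost with quantile normalization (log2 -0.67). Serpinf1 (PEDF), a secreted factor that inhibits no protease, held 578, 549 and 462 FPKM in hepatocytes, 44.6, 33 and 38.6 at D3 (log2 fold change -3.74, SE 0.16, adjusted p = 8.87e-20) and 17.2, 22.1 and 17.7 at D14 (log2 fold change -4.73, SE 0.16, adjusted p = 3.00e-22). Its level in IL6-iMHs was 2.07 to 11.9 (median 5.35) (log2 fold change -6.4, SE 0.12, adjusted p = 6.11e-28). Serpinf2, the plasmin inhibitor alpha-2-antiplasmin, held 633, 597 and 533, then 106, 102 and 105 at D3 (log2 fold change -2.47, SE 0.09, adjusted p = 9.47e-22), and 59 to 267 (median 159) in IL6-iMHs (log2 fold change -2.0, SE 0.07, adjusted p = 1.11e-21).

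Serping1, the C1 inhibitor that restrains complement and kallikrein, held 434, 493 and 342 FPKM in hepatocytes, 205, 173 and 209.6 at D3 (log2 fold change -1.1, SE 0.10, adjusted p = 2.24e-11) and 311, 336 and 301 at D14 (log2 fold change -0.41, SE 0.10, adjusted p = 4.39e-04). The D3 call was lost with quantile normalization (log2 -0.21) and without hepatocyte replicate 2. Clone-1 IL6-iHPCs held 3.08, 3.1 and 3.08 and mouse-1 P35 5.92, 5.92 and 5.09, where the P10 lines held 326 to 516. Serpinh1 (HSP47), which folds collagen in the endoplasmic reticulum, stayed under 10 FPKM in every cell group and was called higher than in hepatocytes at D14 (log2 fold change 1.21, SE 0.06, adjusted p = 1.57e-17), a call lost with quantile normalization (log2 0.02). It held 4.9, 5.61 and 5.64 FPKM in clone-1 IL6-iHPCs, the only passaged line called (log2 fold change 2.35, SE 0.06, adjusted p = 9.87e-25).

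**Figure D3:**
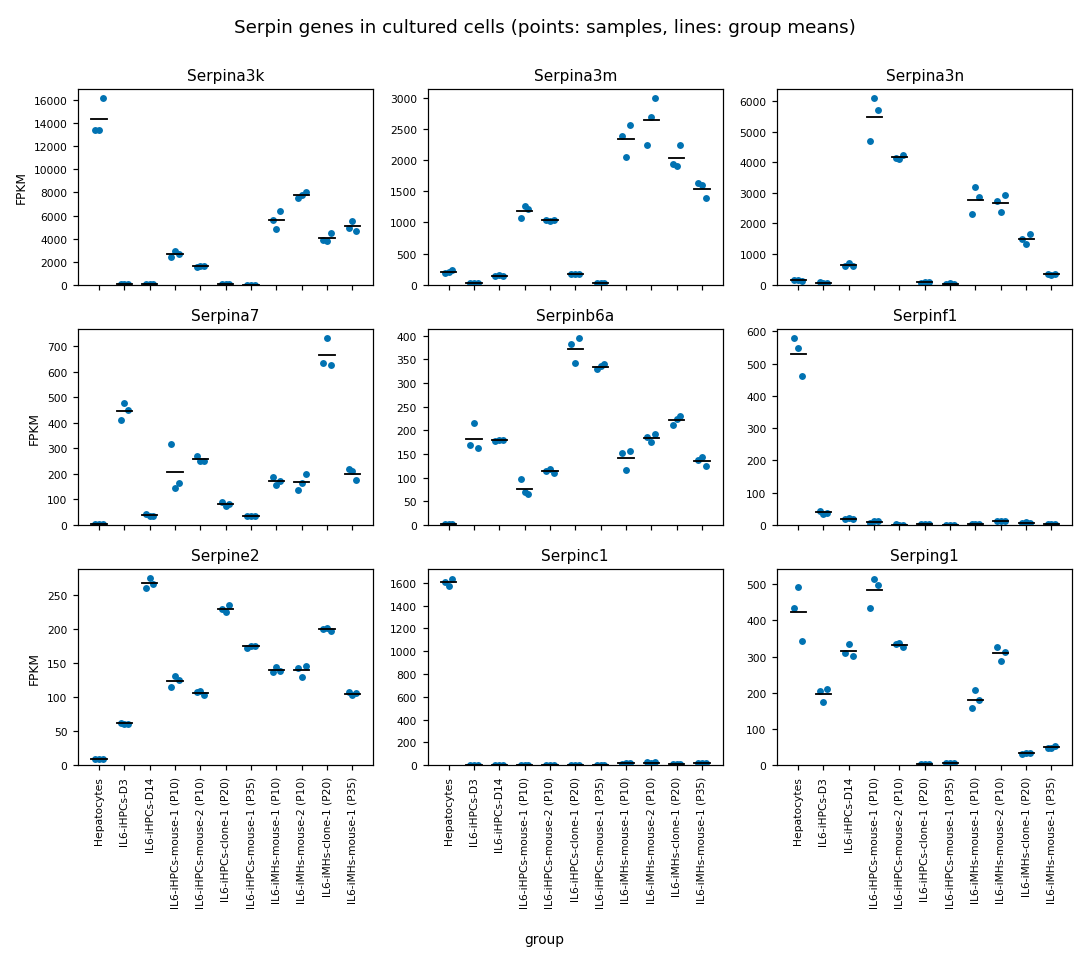
Points show FPKM of 9 serpins in each of the 3 samples of the 11 cell groups, with the group mean as a short line. Serpina7, Serpinb6a and Serpine2 lie higher in every culture than in hepatocytes, Serpinc1 lower in every culture (1576 to 1637 FPKM in hepatocytes and 8.91 to 26.6 in IL6-iMHs), and Serpina3k and Serpina3n part the P10 lines from clone-1 and P35.

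Between passages of mouse-1 more serpins were called lower than higher. Between P10 and P35 IL6-iHPCs, 4 of 29 serpins were higher and 14 lower, where 24.8% of genes were higher and 8.94% lower. The median gene moved by 0.36 and the median serpin by -0.54 on the log2 scale. With quantile normalization higher calls went from 73.51% to 51.37% of all calls and the serpin counts stayed at 4 and 14. Serpina3k fell most (log2 fold change -9.01, SE 0.10, adjusted p = 3.37e-32), then Serpina3n (log2 fold change -7.11, SE 0.12, adjusted p = 2.04e-28), Serping1 (log2 fold change -6.19, SE 0.10, adjusted p = 8.37e-29) and Serpina3m (log2 fold change -5.57, SE 0.10, adjusted p = 1.06e-27). The log2 fold changes of Serpinf2, Serpina3i, Serpina10 and Serpinf1 were -4.46 (SE 0.09), -4.05 (SE 0.10), -3.35 (SE 0.08) and -3.2 (SE 0.16). The 4 that rose were Serpinb9b, by log2 2.69 (SE 0.13), Serpinb6a, by 2.13 (SE 0.11), Serpinb8, by 2.13 (SE 0.08), and Serpina1e, by 1.43 (SE 0.13). Each passage is 1 culture, so passage and differences between cultures cannot be told apart.

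On maturation more serpins were called higher than lower, while over all genes more were lower. Over the 4 lines 16 of 29 serpins were higher in IL6-iMHs than in IL6-iHPCs and 0 lower, where 6.68% of all genes were higher and 21.4% lower. The 0 is by limma with the 2-fold limit, and 6 serpins were lower at an unadjusted p under 0.05 (Serpina3i, Serpinb6a, Serpinb6b, Serpinb8, Serpine2 and Serpinh1), and 3 were called lower by voom on the recovered reads. The median gene was at -0.40 and the median serpin at 1.10. With quantile normalization higher calls went from 23.79% to 51.95% of all calls, and 14 serpins were higher and 0 lower. Without clone-1 the counts were 10 and 2, beside 8.76% and 24.5%, and Serpina1a to Serpina1e, Serpina3k, Serpina3m, Serpinc1 and Serpind1 were among the 10.

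Line by line, 10 serpins were higher and 3 lower in mouse-1 at P10 (9.59% and 15.4% of genes), 11 and 2 in mouse-2 (11.2% and 28.6%), 17 and 2 in clone-1 (5.86% and 17.7%), and 18 and 4 in mouse-1 at P35 (10.2% and 35.1%). Serpina1a to Serpina1e, Serpina3k and Serpinc1 were among the 8 higher in all 4 lines, and 9 were higher in none. Several members differed between lines. The clone-1 groups differed in Y-linked reads (6575 to 9095 in IL6-iHPCs and 0 in IL6-iMHs). Their differences therefore cannot be read as changes of the same cells. Serpina3n went from 67.2, 83.7 and 80.6 to 1489, 1343 and 1659 FPKM in clone-1 and from 36.5, 41.1 and 38.4 to 349.7, 323 and 342 in mouse-1 P35, but from 4677, 6091 and 5699 to 2303, 3190 and 2856 in mouse-1 P10 and from 4143, 4117 and 4239 to 2734, 2385 and 2923 in mouse-2. The log2 fold changes were 4.26 (SE 0.12) and 3.1 (SE 0.12) in the first pair of lines and -0.98 (SE 0.12) and -0.64 (SE 0.12) in the second. Serping1 was called higher in the same 2 lines (3.03 and 2.91) and lower in mouse-1 P10 (-1.41), and Serpina7 was called higher in clone-1 (2.99) and P35 (2.55) alone. Serpinf1 was called lower in mouse-1 P10 (-1.54) and higher in the other 3 lines (2.54, 1.49 and 1.86). Serpina3i was called lower in mouse-1 P10 (-3.24) and mouse-2 (-1.08) and higher in clone-1 (1.65), and Serpinb9b higher in mouse-1 P10 (1.38) and mouse-2 (1.51) and lower in mouse-1 P35 (-1.36). Serpina7 and Serping1 were no longer called over the 4 lines with quantile normalization (log2 0.93 and 0.97). Without clone-1 both were lost as well (log2 0.57 and 0.46), as were the calls of Serpina3n (0.49), Serpina11 (0.73), Serpinf1 (0.95) and Serpinf2 (1.0, just under the 2-fold limit), while Serpina3i (-1.46) and Serpinb6b (-1.09) were then called lower.

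Serpina3k differed far more between lines before maturation than after. IL6-iMHs held 5607, 4853 and 6361 FPKM in mouse-1 P10, 7494, 7783 and 8029 in mouse-2, 3851, 3771 and 4512 in clone-1 and 4935, 5551 and 4700 in mouse-1 P35. Mouse-2 stood above the other lines and clone-1 below them, and mouse-1 at P10 and P35 overlapped. The log2 fold change on maturation was 1.06 (SE 0.10), 2.28 (SE 0.10), 7.07 (SE 0.10) and 9.93 (SE 0.10) in that order. Tested as a difference of differences within mouse-1, maturation raised Serpina3k by 8.87 (SE 0.14) more at P35 than at P10 (adjusted p = 2.71e-28). In that test 16 serpins differed upward and 4 downward, beside 9.65% and 24.1% of all genes, with a median of 1.37 over serpins and -0.36 over all genes. With quantile normalization higher calls went from 28.62% to 49.81% of all calls and the serpin counts were 16 and 3.

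Against hepatocytes, 9 of 29 serpins were higher and 16 lower in IL6-iMHs, where 24.8% and 7.79% of genes were, and without clone-1 the counts were also 9 and 16, beside 22% and 7.28%. The median gene was at 0.46 and the median serpin at -1.20. With quantile normalization higher calls went from 76.12% to 54.05% and the serpin counts were 9 and 13, Serpina1b, Serpina3k and Serpind1 being no longer called. Among the 9 were Serpina3i, Serpina3m, Serpina3n, Serpina7, Serpinb6a, Serpinb6b, Serpinb9b and Serpine2. Of these, Serpina3m and Serpina3n held 1389 to 2995 (median 2144) and 323 to 3190 (median 1981) FPKM (log2 fold change 3.32, SE 0.08, adjusted p = 2.27e-25 and log2 fold change 3.27, SE 0.10, adjusted p = 2.52e-23).

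**Figure D4:**
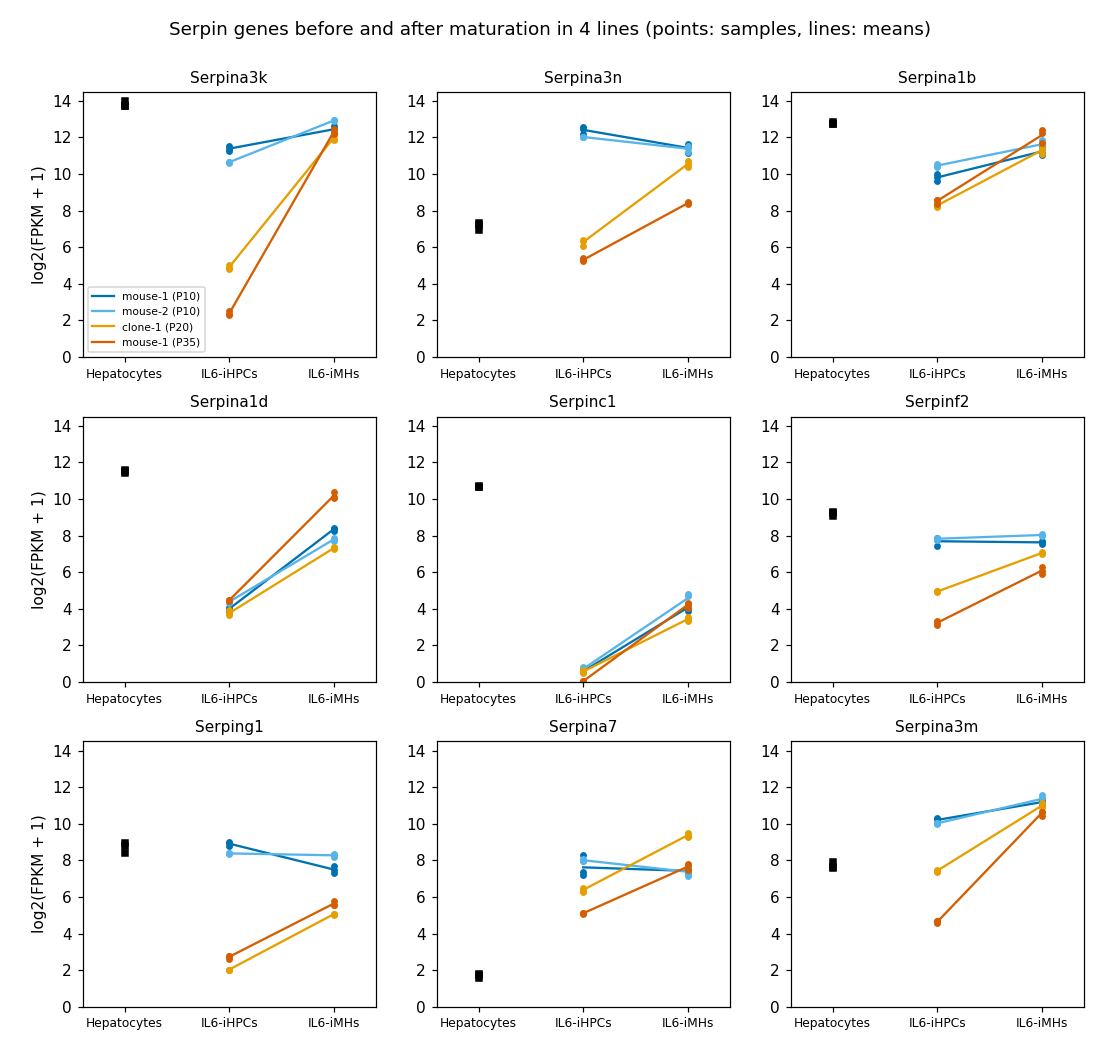
Points show log2(FPKM + 1) of 9 serpins in hepatocytes, IL6-iHPCs and IL6-iMHs, with samples of the same line in 1 colour and a line joining the means of a line's IL6-iHPCs and IL6-iMHs. Serpina3k rises in every line, by log2 1.06 in mouse-1 P10 and 9.93 in mouse-1 P35, while Serpina3n and Serping1 rise in clone-1 and P35 and not in the P10 lines. The clone-1 groups are joined by their label and differed in Y-linked reads.

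In the day 7 cultures, where medium without IL6 served as control, Serpina7 was the 1 serpin of 3 listed that passed the filter. It held 5.36, 5.4 and 5.47 FPKM in primary hepatocytes, 11.9, 12.8 and 11.7 without IL6 and 78.7, 63.2 and 85.2 with IL6. All 3 groups were apart. With IL6 it was higher than without (log2 fold change 2.53, SE 0.09, adjusted p = 7.78e-10), a call that 4.71% of the 276 genes tested shared. Against primary hepatocytes it was higher with IL6 (log2 fold change 3.57, SE 0.09, adjusted p = 1.52e-12, beside 46.4% of genes) and without (log2 fold change 1.04, SE 0.09, adjusted p = 2.49e-07, beside 45.7%). The table lists few genes, and the median of those tested was shifted by 0.85 and 0.87 against hepatocytes. With quantile normalization higher calls went from 87.07% to 45.65% and from 84.56% to 45.16% of calls in the comparisons with hepatocytes, and the last difference of Serpina7 was no longer called. Serpinb9e and Serpinb9f, also listed, were at most 0.206 FPKM in any sample.

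In the liver after PHX, more serpins were called at 6 h and 24 h than at later times, while the family's share of all FPKM was lower at days 3 and 7. At 6 h, 8 of 31 serpins were higher and 3 lower than in normal liver, where 4.78% of the 11114 genes tested were higher and 11.5% lower. At 24 h, 7 were higher and 4 lower (3.74% and 4.16%), at day 3, 2 and 5 (3.33% and 2.49%), at day 7, 4 and 2 (7.81% and 1.03%), and at day 14, 1 and 0 (0.981% and 2.0%). By limma 3 serpins were lower at day 14 at an unadjusted p under 0.05, and voom on the recovered reads called 0 in either direction. All comparisons share the 3 normal livers. The median gene was at -0.28 at 6 h, -0.02 at 24 h, 0.01 at day 3, 0.13 at day 7 and -0.08 at day 14, and the median serpin at -0.24, -0.30, -0.13, 0.04 and 0.04. With quantile normalization higher calls went from 29.34% to 52.93% of all calls at 6 h, from 88.39% to 72.41% at day 7 and from 32.93% to 47.58% at day 14, and the serpin counts were 9 and 3 at 6 h, 7 and 5 at 24 h, 2 and 4 at day 3, 3 and 2 at day 7 and 1 and 0 at day 14. The highest adjusted p of a called serpin was 0.0408 at 6 h and 0.0347 at 24 h.

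Without replicate 2 of the PHX group at day 3, 3 serpins were higher (Serpina3m, Serpina3n and Serpinb8) and 1 lower (Serpina12), beside 2.86% and 1.3% of genes. That replicate held 0.0216 FPKM of Serpina6 where the others held 145 and 194, and 87.5 of Serpina1e where they held 6541 and 4844. Serpina1c, Serpina1d, Serpina9 and Serpinf1, all called lower at day 3, were not called without it.

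The acute phase member Serpina3n and its relative Serpina3m were called higher at 6 h, 24 h and day 3. Serpina3n held 148, 116 and 161 FPKM in normal liver, 1753, 1977 and 3008 at 6 h (log2 fold change 3.95, SE 0.42, adjusted p = 5.10e-06), 1199, 2493 and 2213 at 24 h (log2 fold change 3.73, SE 0.42, adjusted p = 2.71e-05) and 961, 1911 and 398 at day 3 (log2 fold change 2.67, SE 0.42, adjusted p = 4.99e-04). At day 7 it was at 232, 314 and 288, above every normal sample but not called (log2 fold change 0.96, SE 0.42, adjusted p = 0.0953). Serpina3m ran beside it, with 90.5, 133 and 95.6 in normal liver, 1133, 1233 and 1769 at 6 h (log2 fold change 3.68, SE 0.36, adjusted p = 3.06e-06) and 793, 1424 and 1633 at 24 h (log2 fold change 3.54, SE 0.36, adjusted p = 1.41e-05). Serpina3i was higher at both times, by log2 1.94 (SE 0.43) and 1.26 (SE 0.43), the call at 24 h being lost on leaving out any of 4 of the 6 samples (each normal liver or 24 h replicate 2).

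Serpina3k did not pass the 2-fold limit at any time. It held 11090, 11940 and 9221 FPKM in normal liver, 13700, 12330 and 15170 at 6 h, 17460, 18760 and 18760 at 24 h (log2 fold change 0.78, SE 0.20, adjusted p = 0.00787), 6428, 6218 and 5281 at day 3 (log2 fold change -0.84, SE 0.20, adjusted p = 0.00634) and 6808, 5813 and 6759 at day 7 (log2 fold change -0.73, SE 0.20, adjusted p = 0.0116). At each of those times no sample overlapped normal liver, upward at 6 h and 24 h and downward at days 3 and 7. It gave 97.3 to 98% of the FPKM of Serpina3k, Serpina3m and Serpina3n in normal liver and 76 to 82.6% at 6 h.

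Serpina3g and Serpina3f stood out at day 7. Serpina3g (Spi2A), an intracellular cathepsin inhibitor known from leukocytes, held 7.16, 6.43 and 7.88 FPKM in normal liver, 11.4, 8.91 and 13 at 6 h, 153, 104 and 108 at day 7 (log2 fold change 3.89, SE 0.21, adjusted p = 4.52e-09) and 8.26, 7.93 and 7.0 at day 14. Serpina3f held 2.49, 3.16 and 3.02 in normal liver, 16.1, 3.94 and 9.75 at 6 h (log2 fold change 1.32, SE 0.33, adjusted p = 0.00351, a call lost without 6 h replicate 1), 47.9, 33.4 and 32.3 at day 7 (log2 fold change 3.3, SE 0.33, adjusted p = 2.08e-06) and 3.62, 3.54 and 3.86 at day 14. Both were under 1.1 FPKM in every cell group. The other serpins called higher at day 7 were Serpinb9 (4.33, 4.48 and 4.49 FPKM in normal liver and 13.7, 12.2 and 11.7 at day 7, log2 fold change 1.31, SE 0.39, adjusted p = 0.0198) and Serpinb1a, an inhibitor of neutrophil proteases, by log2 1.48 (SE 0.21). The call of Serpinb9 was lost with quantile normalization (log2 1.11) and without normal liver replicate 1 or 2 or day 7 replicate 1.

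Markers of other cell types differed in the same livers. At day 7 all 8 macrophage markers were higher in every sample than in every normal liver, with a summed level of 768 to 1111 FPKM against 125 to 212, as were all 5 T and NK cell markers (14.9 to 17.8 against 1.12 to 1.76), all 7 neutrophil markers (61.4 to 123 against 1.77 to 7.26), 6 of 8 stellate and fibroblast markers and 5 of 7 endothelial markers. Some interferon-responsive genes, picked after values had been seen, were also higher in every day 7 sample. Irf7 held 29.8, 42.1 and 41.8 FPKM in normal liver and 216, 161 and 171 at day 7, and Gbp2 1.78, 3.11 and 2.44 and 61.9, 57.7 and 52.2. The part of these cells and of interferon in the rise of Serpina3f, Serpina3g, Serpinb1a and Serpinb9 was not tested. At 6 h, 6 of 8 macrophage markers were lower in every sample (43.8 to 92.3 summed), and neutrophil markers summed to 43.6 to 44.9.

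**Figure D5:**
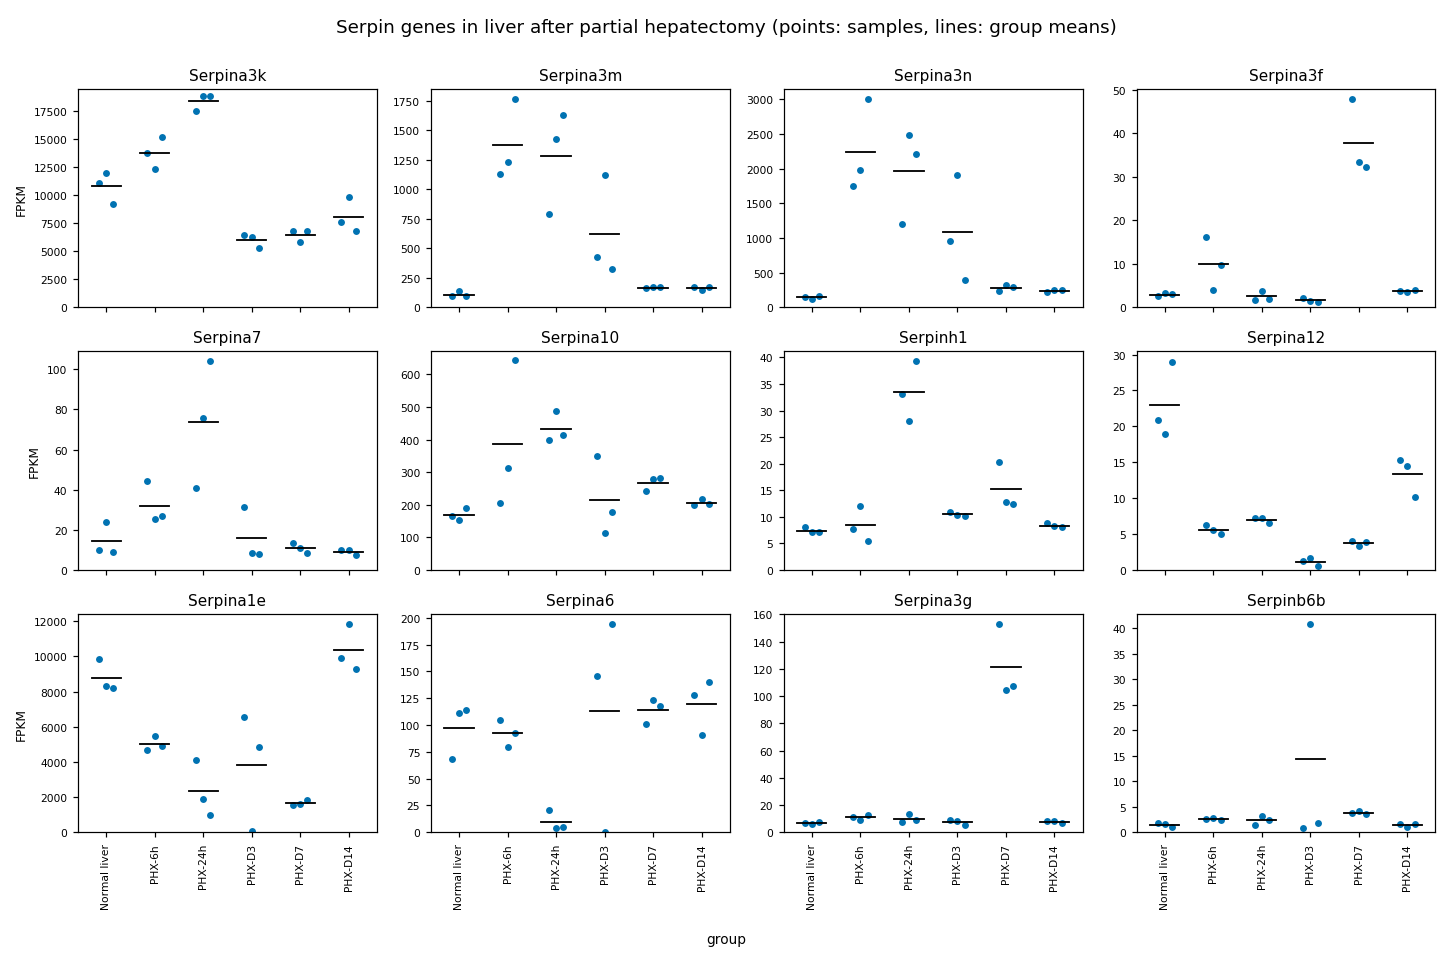
Points show FPKM of 12 serpins in each of the 3 samples of normal liver and of liver 6 h, 24 h, 3, 7 and 14 days after PHX, with group means as short lines. Serpina3m and Serpina3n are highest at 6 h or 24 h, Serpina3g at day 7 (104 to 153 FPKM, against 6.43 to 7.88 in normal liver), and Serpina6 and Serpina1e are lowest in replicate 2 of day 3 (0.0216 and 87.5 FPKM).

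Of the hormone carriers, Serpina7 held 9.61, 23.8 and 9.05 FPKM in normal liver, 44.3, 25.1 and 26.6 at 6 h (log2 fold change 1.21, SE 0.47, adjusted p = 0.0408) and 40.7, 75.9 and 104 at 24 h (log2 fold change 2.33, SE 0.47, adjusted p = 0.00182), after which it overlapped normal liver. The call at 6 h was lost on leaving out any of 4 of the 6 samples (normal replicates 1 or 3, or 6 h replicates 1 or 3). Serpina6 went from 68.3, 111 and 114 to 21, 3.91 and 5.1 at 24 h with no overlap, a change that was not called (log2 fold change -3.47, SE 1.31, adjusted p = 0.0538), and was back at 101, 123 and 118 at day 7. The SE of Serpina6 is shared by all times and takes in the outlying replicate 2 of day 3. In the day 3 comparison it was 0.44 without that replicate. The adipokine gene Serpina12 was lower at every time up to day 7, with 20.8, 19 and 29 FPKM in normal liver, 6.3, 5.51 and 5.0 at 6 h (log2 fold change -1.84, SE 0.20, adjusted p = 6.06e-06), 1.15, 1.56 and 0.448 at day 3 (log2 fold change -3.56, SE 0.20, adjusted p = 1.31e-07) and 4.06, 3.37 and 3.84 at day 7 (log2 fold change -2.31, SE 0.20, adjusted p = 4.97e-07). Serpina9, a B cell member, was called lower at the same 4 times, at day 3 only with replicate 2 of that group (without it log2 -0.96, adjusted p = 0.0586), and its group means were under 10 FPKM throughout.

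Among the alpha-1 antitrypsin genes, Serpina1d alone was called at 24 h, with 1731, 1820 and 1863 FPKM in normal liver and 899, 645 and 633 (log2 fold change -1.33, SE 0.23, adjusted p = 6.16e-04). Serpina1e was at 9840, 8297 and 8191 in normal liver, 4103, 1905 and 989.9 at 24 h (log2 fold change -2.14, SE 1.08, adjusted p = 0.137) and 1558, 1594 and 1808 at day 7 (log2 fold change -2.41, SE 1.08, adjusted p = 0.107), without overlap at either time and without passing the test. This SE is shared by all times and takes in the outlying replicate 2 of day 3. In the day 3 comparison the SE was 1.08 with that replicate and 0.38 without it. The comparisons at 24 h and day 7 were not repeated without it. The share of Serpina1e in the group was 44.2 to 50.1% in normal liver, 36.6 to 41.7% at 6 h and 17.5 to 40.85% at 24 h. At day 3 it was 1.67 to 49.9%, at day 7 16.6 to 17.5% and at day 14 50.7 to 52.4%. The two-sided exact permutation test against normal liver gave p = 0.4 at day 3 and p = 0.1, the smallest possible, at each other time. Serpina1a and Serpina1b were not called at any time, and Serpina1c at day 3 alone.

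Among the inhibitors of clotting and of plasmin, Serpind1 and Serpina10 were called, and Serpinc1 and Serpinf2 were not called at any time. Serpinc1 held 1045, 1062 and 1156 FPKM in normal liver and 712, 670.1 and 686 at 24 h (log2 fold change -0.66, SE 0.13, adjusted p = 0.00193). Serpind1 went from 263, 229 and 277 to 105, 111 and 88.4 at 6 h (log2 fold change -1.33, SE 0.44, adjusted p = 0.0188, lost without normal replicate 3 or 6 h replicate 3). Serpina10 went from 164, 154 and 189.9 to 204, 313 and 644 at 6 h (log2 fold change 1.03, SE 0.36, adjusted p = 0.0263) and 398, 488 and 414 at 24 h (log2 fold change 1.35, SE 0.36, adjusted p = 0.0104), the first of which was lost without normal replicate 1 or 2 or 6 h replicate 3. Serpinf1 went from 428, 384 and 475 to 173, 131 and 138 at 24 h (log2 fold change -1.54, SE 0.34, adjusted p = 0.00349), and Serpinf2 from 451, 385 and 488 to 280.3, 261 and 242 at 6 h (log2 fold change -0.75, SE 0.16, adjusted p = 0.00104). Serping1 was at 427, 368 and 512 and, at day 7, 696, 825 and 820 (log2 fold change 0.85, SE 0.17, adjusted p = 0.00139), and Serpina11 overlapped normal liver at every time.

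Serpinh1, the collagen chaperone, held 8.0, 7.05 and 7.04 FPKM in normal liver and 33.1, 28 and 39.4 at 24 h (log2 fold change 2.03, SE 0.21, adjusted p = 1.86e-05), and 20.4, 12.8 and 12.5 at day 7. Serpinb6a and Serpinb6b were not called at any time, and Serpinb6b reached 40.8 FPKM in replicate 2 of day 3 alone, where the other 2 held 0.848 and 1.76.

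The proteases that serpins act on form a list of 31 genes, of which 28 were tested in cells and 27 in liver. Over all genes 53.9% and 12.1% were higher and lower at D3, 48.1% and 11.3% in the passaged lines, 6.68% and 21.4% on maturation, and in the liver 4.78% and 11.5% at 6 h and 7.81% and 1.03% at day 7. At D3 3 were higher and 17 lower (median log2 -1.54, 1.14 over all genes), and in the passaged lines 3 and 18 (median -1.68, 0.93 over all genes). Plg, the plasmin precursor, fell by 9.36 on the log2 scale at D3. Plat, which activates plasminogen, rose by 4.38 at D3 and by 6.4 in the passaged lines. F12, a factor of contact activation, fell by 5.85 in the passaged lines. These values for the passaged lines are means over the lines. In mouse-1 IL6-iHPCs F12 held a mean of 54.6 FPKM at P10 and 0.0282 at P35. In IL6-iMHs 12 were higher and 2 lower than in IL6-iHPCs (median 0.31, -0.40 over all genes), led by Tmprss6 (4.75) and Plg (4.38), each a mean over the lines. In the liver 1 was higher and 2 lower at 6 h and 5 were higher at day 7 (medians -0.45 and 0.20, -0.28 and 0.13 over all genes). At day 7 the leading rises were Gzma (log2 3.91, adjusted p = 5.06e-08) and Gzmb (3.85, adjusted p = 1.66e-08), proteases of T and NK cells, and Serpinb9 inhibits the product of the latter.

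Other protease inhibitors, a list of 21 genes with 20 tested in cells and 19 in liver, had 4 higher and 11 lower at D3 (median -2.08), 7 and 7 at D14 (median -0.44) and 8 and 2 on maturation (median 0.69), where all genes had medians of 1.14, 1.00 and -0.40 and, at D14, 50% and 12.9% of them were higher and lower. Timp1, an inhibitor of matrix metalloproteinases listed at 0 in hepatocytes, rose to a mean of 40.8 FPKM at D3, and Itih1, a carrier of hyaluronan, fell by 6.94 on the log2 scale. In the liver 3 were higher and 1 lower at 6 h (median -0.07, -0.28 over all genes), led by Itih4, whose product is an acute phase protein (log2 1.83, adjusted p = 1.99e-05).

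Partners of serpins (receptors, cofactors and the collagens that Serpinh1 serves) form a list of 12 genes, with 9 tested in cells and 12 in liver. At D3 5 were higher and 1 lower, against 53.9% and 12.1% of all genes (median 1.71, 1.14 over all genes), with the largest rises (log2) in Col4a1 (4.6) and Plaur, the urokinase receptor (4.44). Vtn, the plasma protein vitronectin, fell by 4.91 at D3 and rose by 4.6 on maturation, a mean over the lines. In mouse-1 IL6-iHPCs Vtn held a mean of 1214 FPKM at P10 and 6.32 at P35. Within mouse-1 the rise on maturation was larger at P35 than at P10 by log2 7.17. In the liver 3 were higher at 6 h and 5 at day 7 (medians 0.24 and 1.03, -0.28 and 0.13 over all genes), with Thbd, the thrombin receptor thrombomodulin, at 3.34, adjusted p = 1.90e-05 at 6 h.

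The other 31 serpins were under 10 FPKM in every group and 26 of them under 1 FPKM. The highest group mean among them was 6.13 FPKM, of Serpina3c 6 h after PHX. They were Serpina16, Serpina1f, Serpina3a, Serpina3b, Serpina3c, Serpina3j, Serpina5 and Serpina9 of clade A, Serpinb10, Serpinb11, Serpinb12, Serpinb1a, Serpinb1b, Serpinb1c, Serpinb2, Serpinb3a, Serpinb3d, Serpinb5, Serpinb6c, Serpinb6d, Serpinb6e, Serpinb7, Serpinb8, Serpinb9c, Serpinb9d, Serpinb9e, Serpinb9f and Serpinb9g of clade B, and Serpine3, Serpini1 and Serpini2. Of clade B, 24 members, no more than 6 passed the filter in cells and 5 in liver.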

How the data were processed

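Values were FPKM, 1 per gene and sample, which the authors deposited in separate tables for cells, livers and day 7 cultures. Per the submitters' processing notes they were made with TopHat 1.4.1 and Cufflinks 1.3.0 on mm10. The day 7 table was held in part (480 rows). Whole reads were recovered for 99.989% of the cell and 99.983% of the liver genes tried, within a fixed tolerance, as a check of depth.

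A gene was tested where 3 or more samples held at least 1 FPKM of it, which left 12328 in cells, 11114 in livers and 276 at day 7, as log2(FPKM + 1) with limma 3.58.1 (trend, all groups of a table in 1 fit) in R 4.3.3. P-values were adjusted by the Benjamini-Hochberg method across the genes tested in the table. Sequences and tables were handled with Python 3.11.15, pandas 2.3.3 and Biopython 1.88, and figures with matplotlib 3.10.9.

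Groups came from the labels. The members and the lists of markers, proteases, inhibitors and partners were chosen with earlier results of these data known. Described in full were serpins with a group mean of at least 10 FPKM in cells or livers, and from each list up to 2 rises and 2 falls. A few items are not reported here by name, though counts over serpins include all that were tested. Fits were repeated without the filter or with it at 5 FPKM, with 0.1 as pseudocount, after quantile normalization, by voom on the recovered reads, with the replicate number as a block, without the fold limit and without each sample in turn. Leaving out clone-1 was chosen after seeing the data.

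Numbers shared by samples of different groups do not come from shared animals in the labels, and same-numbered samples did not deviate together (mean correlation of deviations -0.015 in cells and -0.0302 in livers), so they were not taken as pairs. No 2 samples agreed within sampling noise.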

Additional observations from a re-analysis of the deposited data

Results flagged for a closer look

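Maturation differed between P10 and P35 of mouse-1 in 19 described serpins, by the test of the difference of differences in limma (adjusted p over all genes tested). In each case the value is the log2 fold change of IL6-iMHs against IL6-iHPCs at P35 minus that at P10. It thus takes in the levels before maturation as well as those after. All but Serpina12 and Serpina1d were called the opposite way between P35 and P10 IL6-iHPCs, that is before maturation. Each passage is 1 culture, so passage and differences between cultures cannot be told apart in that test.

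Among the alpha-1 antitrypsin genes the difference was 2.17 for Serpina1a, 2.17 for Serpina1b, 3.34 for Serpina1c and 1.37 for Serpina1d, but -1.01 for Serpina1e. In the Serpina3 group it was 8.87 for Serpina3k, 4.98 for Serpina3m, 4.08 for Serpina3n and 3.19 for Serpina3i. In the rest of clade A it was 1.64 for Serpina10, 1.3 for Serpina11, 1.69 for Serpina12 and 2.74 for Serpina7. The clade B genes Serpinb6a and Serpinb9b were at -2.18 and -2.74, the other way. Serping1 was at 4.32, Serpinf1 at 3.4, Serpinf2 at 2.91 and Serpind1 at 1.58. The difference for Serpina1e was not called with quantile normalization (-0.74) or on leaving out 4 of the 12 samples in turn.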

How the results depend on the processing

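Under the alternatives counts of called serpins stayed within 1.5 times of those reported, except as given here, and no described serpin changed sign where it was called. Without the 2-fold limit 25 serpins passed in IL6-iMHs against IL6-iHPCs, 17 at 6 h and 17 at 24 h after PHX, and 2 at day 14, where voom on the recovered reads called 0. Leaving out each sample in turn gave 4 to 9 serpins at day 3 after PHX (4 without replicate 2) and 0 to 1 at day 14 (0 without replicate 3). The same gave 24 to 26 at D3 in culture, 19 to 20 for the difference between P35 and P10 in maturation, 9 to 11 at 6 h, 9 to 13 at 24 h and 5 to 7 at day 7 after PHX, and log2 fold changes of Serpina7 at day 7 in culture of 2.45 to 2.66 with against without IL6. Of 173 calls of described serpins, 15 were lost with quantile normalization, 0 with a pseudocount of 0.1 and 0 with the replicate block, under which 11 serpins were called at 6 h, 12 at 24 h and 7 at day 3 after PHX, and 26 at D3 and 16 on maturation in culture. The cause of these losses was not tested. The alternative without clone-1, chosen after seeing the data, left 10 higher and 2 lower on maturation. Depth did not limit abundant serpins, but fold changes of members under 1 FPKM rest on few reads, technical repeats in cells understate the spread between mice, and reads of near-identical Serpina1 copies may have been split by the authors' counting.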
